A study of Mus musculus with 12 samples.

Results

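The genes described here are the mouse snoRNA and scaRNA genes with a usable count in RNA-seq libraries of cells labelled B16F10. They were taken by name, from the prefixes Snora, Snord and Scarna, and selected on a summed count of at least 100 over all 12 libraries. Of 129 genes with such a name and a count, 29 reached that sum, out of 29550 gene IDs with a count in the series. The 29 are 17 of 79 C/D box genes (Snord), 11 of 41 H/ACA box genes (Snora) and 1 of 9 scaRNA genes, Scarna2. Because summed counts chose the genes, their presence at these levels is a description and not a result. Just inside the threshold were Snord91a with 115 counts, Snora62 with 113 and Snora69 with 101, and just outside it were Snord110 with 97, Snord37 with 95 and Snord89 with 87. Leaving out the group in which each gene was highest, 26 of the 29 still averaged the same count per library, and Snora23, Snord91a and Snora69 did not.

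Small nucleolar RNAs guide chemical marks onto other RNAs. C/D box snoRNAs direct the methylase fibrillarin to riboses of ribosomal RNA, and H/ACA box snoRNAs direct the pseudouridine synthase dyskerin, while scaRNAs do the same for spliceosomal RNAs in Cajal bodies. Most vertebrate snoRNAs are cut from introns of host genes, many of which encode ribosomal proteins and other parts of the translation machinery, so the spliced host mRNA and the snoRNA come from the same transcript but are then degraded separately.

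B16F10 is a transplantable mouse melanoma line. The 4 groups, of 3 libraries each, were IR-treated cells labelled sgRnf19a, IR-treated control cells, untreated cells labelled sgRnf19a, and untreated control cells. By label the sgRnf19a cells are deficient in Rnf19a, a RING-between-RING ubiquitin ligase, and give IR as a 24 h treatment without spelling it out; the control guide is labelled sgNC in the deposited tables. Whether the 3 libraries of a group are separate cultures is not given, and p-values cover the spread among these libraries only, which may be technical. In such bulk RNA, fewer cells of a kind and less RNA per cell cannot be told apart.

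The IR-treated libraries held 34262483 to 45576326 counts and the untreated ones 62681644 to 71265107 counts. Genes of ribosomal RNA took 11.3 to 22.1% of the counts with IR and 0.223 to 0.696% without, and the median log2 CPM of genes over 6 kb minus that of genes under 1 kb (CPM, counts per 1000000 library counts) was 3.43 to 4.78 with IR and 5.67 to 6.03 without. The part of these shifts in the results was not tested. Rnf19a mRNA had 782, 336 and 1416 counts in IR-treated sgRnf19a libraries and 123, 281 and 201 in IR-treated control libraries, against 2057, 1968 and 1642 in untreated sgRnf19a libraries and 2420, 2266 and 1786 in untreated control libraries. Its log2 fold change in sgRnf19a over control cells was 1.92 with IR (edgeR adjusted p = 0.00352) and -0.16 without (edgeR adjusted p = 0.881), so it did not pass as lower, and every direction for the guide below rests on the labels alone. Among 7 melanocyte markers, summed counts were 7208 for Mitf, 109 for Pmel, 6 for Dct and 0 for Tyr, Slc45a2, Tyrp1 and Mlana, whereas the keratins Krt8, Krt18 and Krt19 had 218155, 147196 and 106631. The other epithelial markers looked up, Epcam and Cdh1, had 799 and 36. Summed counts were 34795, 8571 and 2234 for the fibroblast markers Col1a1, Col1a2 and Pdgfra. For the immune markers Lyz2, Ptprc and Cd3e they were 9014, 2065 and 0. Apart from Mitf, the melanocyte markers go against a pigmented melanoma line, and the cell name rests on the label.

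The sequences of the 5 genes that passed a test, and of 3 well-counted ones that did not, show what was counted. They are GENCODE M21 transcripts on mm10, written in DNA letters on the gene's own strand, with the first TGATGA (C box) within 20 bases of the start and the last CTGA (D box) or ACA within 20 bases of the end in capitals.
Scarna2, last 120 of 414 bases, chr3:108554338-108554457, minus strand: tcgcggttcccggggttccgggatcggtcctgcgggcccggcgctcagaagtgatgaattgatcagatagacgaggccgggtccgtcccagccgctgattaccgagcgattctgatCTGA
Snord42b, chr11:78183056-78183124, minus strand: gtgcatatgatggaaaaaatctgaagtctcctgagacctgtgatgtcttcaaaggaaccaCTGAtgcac
Snora21, chr11:97781639-97781775, minus strand: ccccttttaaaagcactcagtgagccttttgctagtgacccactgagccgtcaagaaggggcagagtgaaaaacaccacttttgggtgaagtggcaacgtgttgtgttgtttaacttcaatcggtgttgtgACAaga
Snora57, chr19:8888538-8888685, minus strand: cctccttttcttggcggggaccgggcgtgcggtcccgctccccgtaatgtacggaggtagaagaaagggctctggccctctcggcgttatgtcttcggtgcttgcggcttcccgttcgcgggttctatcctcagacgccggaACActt
Snord73a, chr3:86138791-86138858, minus strand: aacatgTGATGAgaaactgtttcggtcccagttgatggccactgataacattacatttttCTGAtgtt
Snora31, chr14:75847905-75848034, plus strand: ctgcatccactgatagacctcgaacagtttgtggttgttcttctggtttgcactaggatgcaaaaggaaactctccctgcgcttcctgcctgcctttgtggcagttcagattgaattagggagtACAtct
Snord49a, chr11:62603450-62603521, plus strand: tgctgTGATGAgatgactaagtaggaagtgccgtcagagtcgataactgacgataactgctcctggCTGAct
Snord49b, chr11:62603079-62603150, plus strand: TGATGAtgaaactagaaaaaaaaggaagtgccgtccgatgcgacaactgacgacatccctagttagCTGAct

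These motifs are the class marks of the RNAs and were looked for on the transcript strand only. TGATGA stood within 20 bases of the start in 10 of 17 C/D genes (58.8%), against 0.699% of 141704 GENCODE transcripts. CTGA stood within 20 bases of the end in 16 of 17 C/D genes (94.1%), against 9.24% of all transcripts, and ACA in 11 of 11 H/ACA genes, against 28.8%. Snord49a and Snord49b, which lie in introns of the same gene, were identical at 69.2% of aligned positions. The 29 genes span 66 to 414 nt, with a median of 94.

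By annotation 24 of the 29 lie within 18 larger genes on the same strand, and 13 of them lie in 10 ribosomal protein genes. Rpl13a holds Snord34, Snord32a and Snord35a, the noncoding gene 2410006H16Rik holds Snord49a, Snord49b and Snord65, and Rpl3 and Kansl2 each hold a pair. Snord42b in Rpl23a and Snora2b in Kansl2 overlap an exon of a retained-intron transcript, and the other 22 hosted genes lie in introns. Scarna2, Snora57, Snora17, Snora43 and Snord104 have no annotated host, and Snora57 lies opposite an intron of Lbhd1. With 37-base reads, 22 of the 29 share no 37-mer with a gene other than their host, while Snora21, Snora41, Snora34, Snord58b, Snora57, Snora17 and Snora43 share some and are uncertain. Among the 22, Snora2b shares 56 of its 101 37-mers with transcripts of its host Kansl2, so it is uncertain against that host. The counts do not tell mature snoRNA from unspliced host RNA.

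All 29 genes were scarce, which limits the precision of everything that follows. A library held between 285 and 482 member counts with IR and between 617 and 947 without, which is 7.51 to 11.46 and 9.84 to 14.57 per 1000000 counts. In genes over 2 kb low counts piled up at multiples of 4, but 28.7% of the members' values were such multiples, so how many read pairs a member's count stands for is not known. The deposited FPKM values, which are per transcript length, ranged over members from 0.347 for Snora23 to 13.9 for Snord42b in IR-treated sgRnf19a cells and from 0.117 for Snora23 to 18.8 for Snord42b in IR-treated control cells. They ranged from 0.212 for Scarna2 to 13 for Snord49a in untreated sgRnf19a cells and from 0.048 for Scarna2 to 9.97 for Snord49a in untreated control cells (means of 3 libraries). Snord42b and Snord49a thus led in FPKM, and the gene at the bottom was Snora23 with IR and Scarna2 without.

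In CPM scaled by TMM, the members summed to 10.6 ± 1.97 in IR-treated sgRnf19a cells and 11.2 ± 0.561 in IR-treated control cells, against 11 ± 1.15 in untreated sgRnf19a cells and 9.77 ± 2.17 in untreated control cells (SD, n = 3). The sums overlap between groups. C/D genes summed to 5.94 ± 1.45, 7.01 ± 0.602, 6.97 ± 0.63 and 5.63 ± 1.15 CPM in the same 4 groups, and H/ACA genes to 3.46 ± 0.789, 3.65 ± 0.387, 3.98 ± 0.501 and 4.12 ± 1.01 CPM. Libraries were uneven within groups. Library 2 of the untreated control group had the highest CPM of its group for 19 of 29 members, library 4 of the IR-treated sgRnf19a group for 16, and library 3 of the untreated sgRnf19a group had the lowest for 19.

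The first comparison asks how snoRNA and scaRNA genes stood 24 h into IR. In control cells 5 of 29 passed edgeR's quasi-likelihood test at a Benjamini-Hochberg adjusted p under 0.05 over 18183 genes, 4 higher and 1 lower, where 47.9% of all tested genes passed (22.2% higher, 25.7% lower). In sgRnf19a cells 2 of 29 passed, both higher, where 35.6% of all genes passed (18% higher, 17.6% lower). Both shares, 17.2% and 6.9%, lie below those of all genes; members are counted far more thinly than most genes, and the part of that was not tested. The 2 comparisons share no library. The median log2 fold change of the members was -0.02 in control cells and -0.34 in sgRnf19a cells, against -0.02 for all genes in each.

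Scarna2, which guides modification of the U2 spliceosomal RNA, changed most among the members. It had 31, 57 and 34 counts in IR-treated sgRnf19a libraries and 10, 30 and 14 in IR-treated control libraries, against 9, 6 and 4 in untreated sgRnf19a libraries and 2, 2 and 0 in untreated control libraries. Every IR-treated library was above every untreated one, although the untreated libraries were deeper. It reached the count threshold through the IR-treated groups, with 122 and 54 counts there against 19 and 4 in the untreated groups. That selection favours a higher value with IR. Its level was 1.2 ± 0.673 CPM in IR-treated sgRnf19a cells against 0.0844 ± 0.033 in untreated sgRnf19a cells, a log2 fold change of 3.79 (SE 0.80, edgeR adjusted p = 0.00355). In control cells it was 0.53 ± 0.286 CPM with IR against 0.0179 ± 0.0155 without (n = 3 each), and the log2 fold change was 4.76 (SE 0.90, edgeR adjusted p = 0.00096). The untreated control group held 4 counts in all, so that fold is poorly bounded. With a length and GC correction fitted on genes over 300 nt the value in sgRnf19a cells was 2.07 and did not pass (edgeR adjusted p = 0.0594).

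Snord42b, a C/D box snoRNA of Rpl23a, was the other gene higher in both. It had 1.02, 1.41 and 1.25 CPM in IR-treated sgRnf19a libraries, against 0.601, 0.675 and 0.496 in untreated sgRnf19a libraries, and the log2 fold change was 1.05 (SE 0.33, edgeR adjusted p = 0.0258). It had 1.74, 1.29 and 1.91 CPM in IR-treated control libraries, against 0.664, 0.518 and 0.662 in untreated control libraries, and the log2 fold change was 1.42 (SE 0.33, edgeR adjusted p = 0.00355). The groups do not overlap in either cell type. In sgRnf19a cells the call was lost without any single one of the 3 untreated libraries or without IR-treated library 3 (edgeR adjusted p 0.0503 to 0.0911), with no filter (0.0936) and with the planned length and GC correction (0.0851). With the correction fitted on genes over 300 nt the log2 fold change was -0.61 in sgRnf19a cells (edgeR adjusted p = 0.218) and 0.56 in control cells (edgeR adjusted p = 0.24).

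The remaining calls fell in control cells alone, and the difference between the responses passed for none of them. Snora57, an H/ACA box gene, had 0.232, 0.587 and 0.186 CPM in IR-treated sgRnf19a libraries and 1.1, 0.66 and 0.483 in IR-treated control libraries, against 0.173, 0.0779 and 0.165 in untreated sgRnf19a libraries and 0.194, 0.0777 and 0.217 in untreated control libraries. Its log2 fold change was 1.24 (SE 0.73, edgeR adjusted p = 0.21) in sgRnf19a cells and 2.18 (SE 0.73, edgeR adjusted p = 0.027) in control cells. The call in control cells was lost without control library 1 or 2 or IR-treated control library 1 (edgeR adjusted p 0.0582 to 0.104) and with no filter (0.0591). With the planned length and GC correction the value was 0.81 (edgeR adjusted p = 0.382). The lowest value in control cells under any alternative run was 0.14.

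Snora21, an H/ACA box gene of Rpl23, had 0.719, 0.414 and 0.506 CPM in IR-treated sgRnf19a libraries against 0.574, 0.429 and 0.372 in untreated ones, which overlap. In control cells it had 0.817, 0.631 and 0.617 CPM with IR against 0.263, 0.35 and 0.265 without, with a log2 fold change of 1.23 (SE 0.46, edgeR adjusted p = 0.0433). That call was lost in all but 1 of the 12 fits that left out a library, with DESeq2's size factors, with no filter and with the length and GC correction (edgeR adjusted p 0.0516 to 0.199).

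Snord73a, a C/D box gene of Rps3a1, was the only member that passed as lower in edgeR. DESeq2 called 9 of 29 members with IR in control cells, 4 higher and 5 lower. Of all genes it called 9266 of 20207, 3957 higher and 5309 lower. Its lower members were Snord73a, Snora23, Snord91a, Snord53 and Snora17. All 5 had more counts in each untreated group than in either IR-treated group. For such genes the selection on summed counts favours a lower value with IR. Snora23 and Snord91a reached the count threshold through a single untreated group. Snord73a had 4, 5 and 14 counts in IR-treated sgRnf19a libraries and 1, 1 and 2 in IR-treated control libraries, against 19, 20 and 17 in untreated sgRnf19a libraries and 20, 21 and 18 in untreated control libraries. The untreated libraries were nearly level, and the 3 IR-treated control libraries held 4 counts in all. In control cells its level was 0.0393 ± 0.0129 CPM with IR against 0.255 ± 0.0334 without (n = 3 each), a log2 fold change of -2.62 (SE 0.84, edgeR adjusted p = 0.0219). In sgRnf19a cells the levels were 0.213 ± 0.144 and 0.249 ± 0.0133 CPM, and the log2 fold change was -0.23 (SE 0.73, edgeR adjusted p = 0.842). The call in control cells was lost without IR-treated control library 1 or 4 or control library 1 or 2 (edgeR adjusted p 0.0547 to 0.0675) and with the length and GC correction (0.06).

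**Figure D1:**
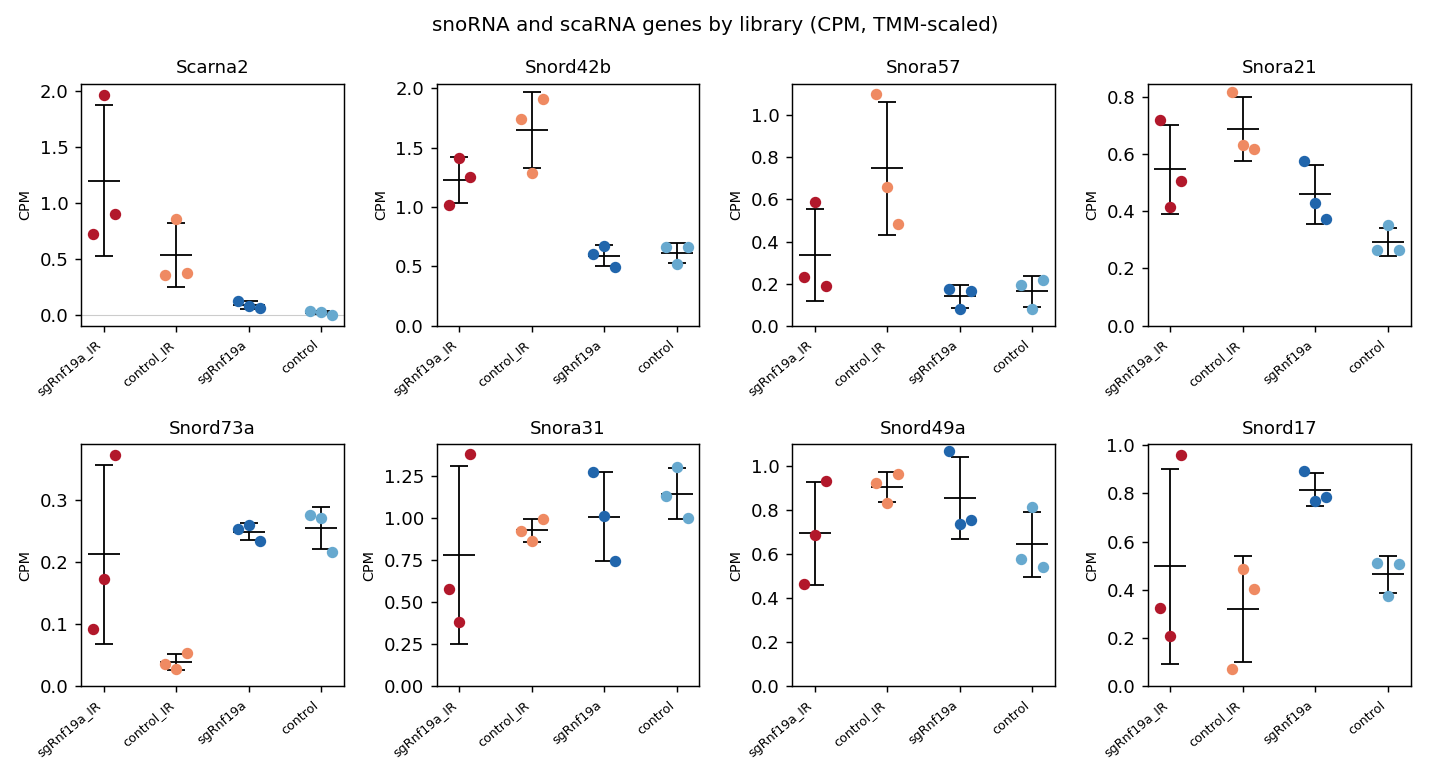
CPM (TMM-scaled, linear axis) of 8 genes in each library, with points for libraries and a bar for the mean ± SD of 3 libraries; groups run from IR-treated to untreated. Scarna2 and Snord42b lie higher in every IR-treated library than in any untreated one, Snord73a is lowest in IR-treated control cells, and Snora31, Snord49a and Snord17 overlap between groups in at least 1 cell type.

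Among the best counted members, Snora31, Snord17 and Snord49a overlapped between IR-treated and untreated libraries in sgRnf19a cells. In control cells Snord17 overlapped, while Snora31 and Snord49a did not overlap but did not pass either. Snora31, an H/ACA box gene of Tpt1, had 0.58, 0.38 and 1.38 CPM in IR-treated sgRnf19a libraries and 0.923, 0.86 and 0.993 in IR-treated control libraries, against 1.27, 1.01 and 0.744 in untreated sgRnf19a libraries and 1.13, 1.3 and 0.999 in untreated control libraries. Its log2 fold change with IR was -0.36 (SE 0.45) in sgRnf19a cells and -0.30 (SE 0.45) in control cells. Snord17, a long C/D box gene of Snx5, had 0.325, 0.207 and 0.958 CPM in IR-treated sgRnf19a libraries against 0.894, 0.766 and 0.785 in untreated ones, so that library 4 alone stood above the untreated range. Snord49a, a C/D box gene, had 0.464, 0.69 and 0.932 CPM in IR-treated sgRnf19a libraries against 1.07, 0.74 and 0.758 in untreated ones, and 0.923, 0.832 and 0.966 in IR-treated control libraries against 0.581, 0.816 and 0.542 in untreated ones.

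Over all 29 members the log2 fold change with IR ran from -1.86 (Snora23) to 3.79 (Scarna2) in sgRnf19a cells and from -2.86 (Snora23) to 4.76 (Scarna2) in control cells. The SE ran from 0.33 to 1.2 in sgRnf19a cells and from 0.33 to 1.34 in control cells, with medians of 0.71 and 0.73. Snora23, an H/ACA box gene of Ipo7, had 10 counts in IR-treated sgRnf19a cells and 3 in IR-treated control cells, against 72 and 58 in the untreated groups, and passed in neither in edgeR. It reached the count threshold through an untreated group, so the selection favours its low values with IR. The CPM of IR-treated and untreated libraries did not overlap for 11 members in sgRnf19a cells (6 higher, 5 lower; 49.8% of all genes) and for 15 in control cells (7 higher, 8 lower; 62.1% of all genes).

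**Figure D2:**
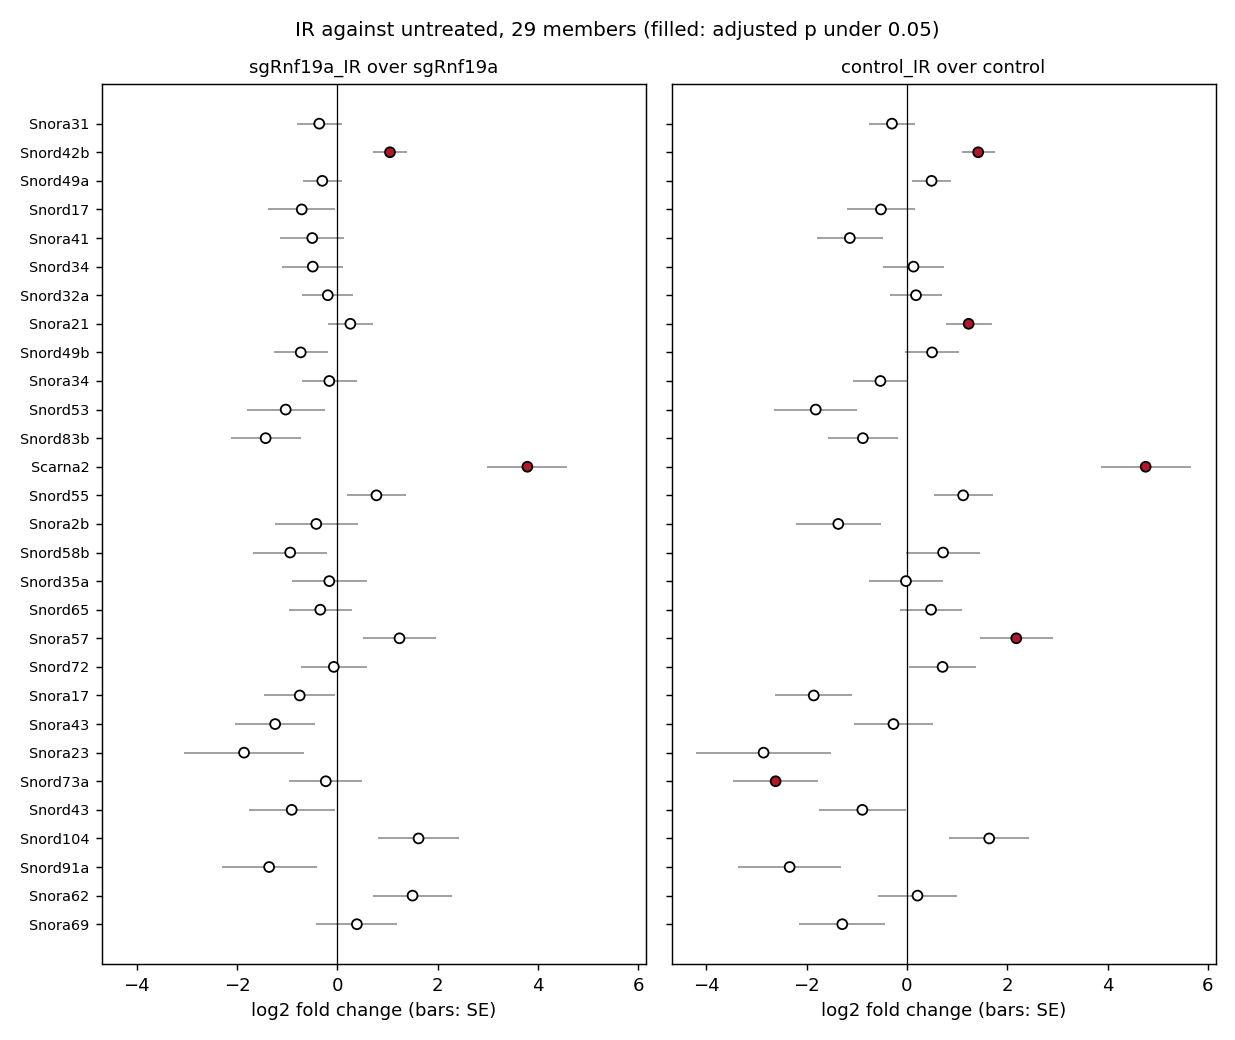
Log2 fold change (x axis) of each of the 29 genes, from the highest summed count at the top to the lowest at the bottom, with IR over untreated in sgRnf19a cells (left) and control cells (right); bars are the SE and filled points passed at an adjusted p under 0.05. Scarna2 and Snord42b are filled on both sides, at 3.79 and 1.05 on the left and 4.76 and 1.42 on the right, and most other points lie closer to 0.

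The number of called members, and the split between higher and lower, depended on the scale. With limma on log2(FPKM + 1), where FPKM is divided by all counts including those of ribosomal RNA and the median of all genes moved to -0.40 in sgRnf19a cells and -0.34 in control cells, 17 members were called in sgRnf19a cells (2 higher, 15 lower; 63.6% of all genes) and 15 in control cells (4 higher, 11 lower; 63.9% of all genes). The sign of the fold change differed from that in edgeR for 2 of 29 members in sgRnf19a cells and 5 of 29 in control cells. Scarna2 remained higher on both. A fold change on that scale understates low genes.

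Set beside their hosts, most of the hosted snoRNA genes had the lower log2 fold change with IR. The host genes rose with IR in 13 of 18 cases and fell in 0 in sgRnf19a cells, and rose in 12 and fell in 4 in control cells (edgeR, adjusted p under 0.05), where 18% and 22.2% of all genes rose. The snoRNA gene changed less upward than its host in 24 of 24 pairs in sgRnf19a cells, with median log2 fold changes of -0.35 for the snoRNA genes and 1.52 for the hosts, and a median difference within pairs of -1.67. It did so in 21 of 24 pairs in control cells, with medians of -0.16 and 1.34 and a median difference of -1.63. A difference within a pair does not depend on a single scaling factor per library, but it moved with corrections that depend on length. In sgRnf19a cells its median was -1.62 with the planned length and GC correction and -2.5 with that from genes over 300 nt. In control cells these were -1.39 and -2.07. On log2(FPKM + 1) the medians were -1.45 in sgRnf19a cells and -1.25 in control cells. Without Snora23, Snord91a and Snora69, which reached the count threshold through their highest group, the snoRNA gene was below its host in 21 of 21 pairs in sgRnf19a cells and 19 of 21 in control cells. The 21 pairs still include members such as Snord53, Snord73a and Snord43, which held most of their counts in the untreated groups together. The selection on summed counts is therefore not removed. Pairs that share a host are not independent, and no test was made over the pairs. No share of all genes below these hosts was computed. The median log2 fold change of all genes was -0.02 in each cell type, also below the host medians.

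Of the 10 ribosomal protein hosts, 9 rose in sgRnf19a cells and 8 in control cells. Rpl23a, which holds Snord42b, had 1540, 2070 and 1230 CPM in IR-treated sgRnf19a libraries and 2170, 2130 and 2240 in IR-treated control libraries, against 304, 342 and 433 in untreated sgRnf19a libraries and 567, 345 and 699 in untreated control libraries. Its log2 fold change was 2.16 (SE 0.26, edgeR adjusted p = 0.000142) in sgRnf19a cells and 2.02 (SE 0.26, edgeR adjusted p = 0.000121) in control cells, so Snord42b rose less than its host. Over the 10 ribosomal protein hosts the log2 fold change ran from 0.69 to 2.16 in sgRnf19a cells and from 0.15 to 2.18 in control cells. Their 13 snoRNA genes had medians of -0.16 and 0.18.

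Of the 8 other hosts, 4 rose in sgRnf19a cells, and 4 rose and 4 fell in control cells. The difference between the responses passed for 0 of the 18 hosts in edgeR and for 3, all higher, in DESeq2. Of all genes, 0.682% passed in edgeR and 1677 of 13122 in DESeq2 (1318 higher, 359 lower). 2410006H16Rik had 43.4, 50.3 and 41.2 CPM in IR-treated sgRnf19a libraries and 116, 119 and 97.2 in IR-treated control libraries, against 13.9, 12 and 14.7 in untreated sgRnf19a libraries and 23.3, 16.4 and 23.5 in untreated control libraries. It rose by a log2 fold change of 1.73 in sgRnf19a cells and 2.40 in control cells (SE 0.17 each), while its snoRNA genes Snord49a, Snord49b and Snord65 stood at -0.30, -0.73 and -0.34 and at 0.49, 0.50 and 0.48, none of them called. Ipo7, Wdr43, Tsr1 and Snx5 were the 4 hosts that fell in control cells, with log2 fold changes of -3.54, -1.43, -1.16 and -0.62. Their snoRNA genes Snora23, Snord53, Snord91a and Snord17 stood at -2.86, -1.82, -2.34 and -0.52, none of them called in edgeR. Snord17, Snora23 and Snord58b were the 3 members above their host in control cells.

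**Figure D3:**
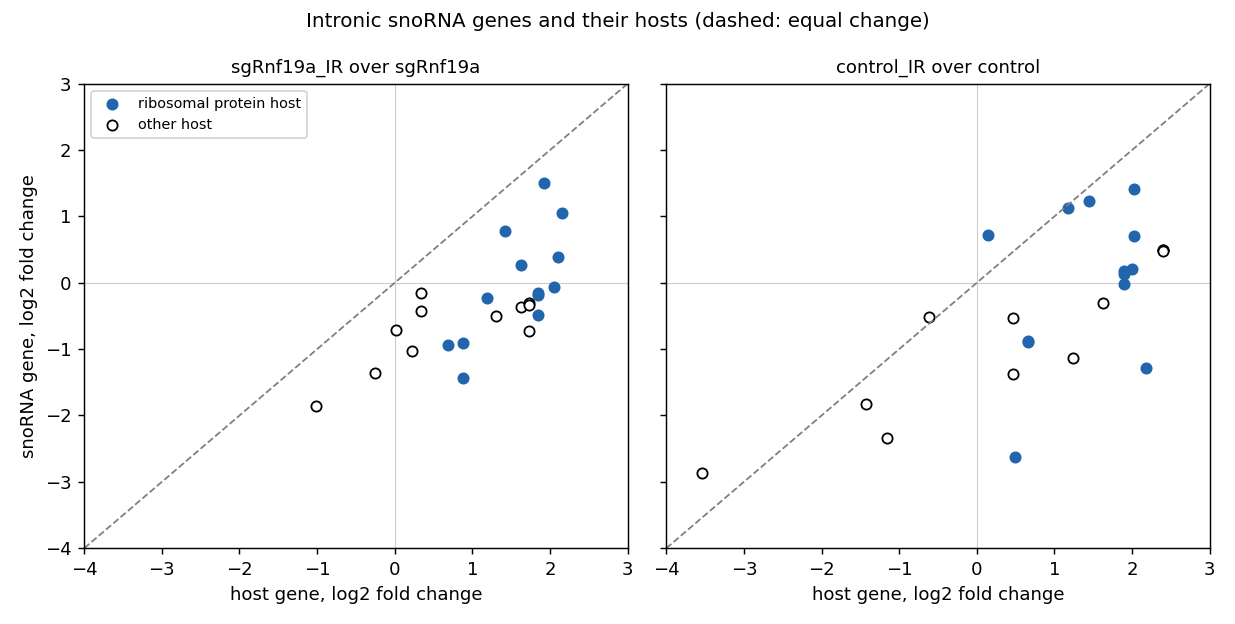
Log2 fold change with IR of each of 24 snoRNA genes (y axis) against that of its host gene (x axis), in sgRnf19a cells (left) and control cells (right), with filled points for ribosomal protein hosts and a dashed line at equal change. All 24 points lie under the line on the left and 21 of 24 on the right, at median differences of -1.67 and -1.63.

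As snoRNA counts per 1000000 counts of the host, the median over the 24 pairs was 572 in IR-treated sgRnf19a cells and 704 in IR-treated control cells, against 1600 in untreated sgRnf19a cells and 1220 in untreated control cells. The ratio with IR to without had a median of 0.304 in sgRnf19a cells, from 0.184 (Snord49b) to 0.78 (Snora62), and of 0.306 in control cells, from 0.089 (Snora69) to 1.94 (Snord58b, which is uncertain). For Snord49a it was 10700, 13700 and 22600 in IR-treated sgRnf19a libraries against 76800, 61700 and 51700 in untreated ones, and 7930, 6990 and 9940 in IR-treated control libraries against 24900, 49700 and 23100 in untreated ones. The ratios of IR-treated libraries lay wholly below those of untreated ones for 19 of 24 pairs in sgRnf19a cells and 15 of 24 in control cells, and wholly above for 0. No background of other nested genes was computed for this count. The 24 pairs include Snora23, Snord91a and Snora69, which reached the count threshold through an untreated group. Others, such as Snord53 and Snord73a, held most of their counts in the untreated groups together. For such genes the selection favours a lower ratio with IR. Without untreated control library 2, which was high for most members, the median difference within pairs in control cells was -0.96 over the 22 pairs still tested.

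**Figure D4:**
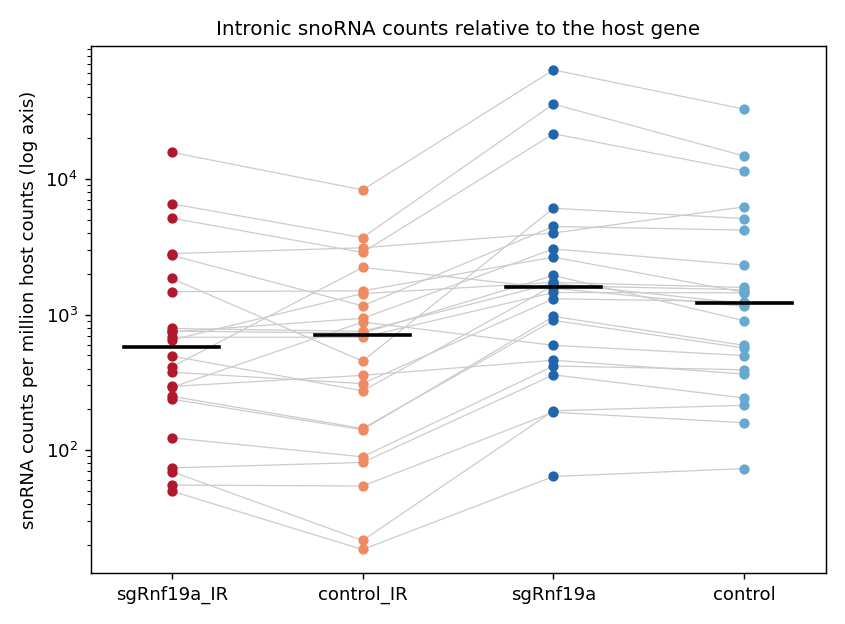
SnoRNA counts per 1000000 host counts (log axis) for 24 pairs in the 4 groups, each point the mean of 3 libraries, grey lines joining a pair and black bars marking medians. The medians are 572 and 704 in the IR-treated groups and 1600 and 1220 in the untreated groups.

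The guide comparisons ask whether cells labelled sgRnf19a differed from control cells. In untreated cells 0 of 29 members passed, where 6.22% of all genes did, with 1 at an unadjusted p under 0.05 in edgeR. DESeq2, which called 1728 of 18570 genes, called 0 members. The log2 fold change ran from -0.99 (Snora34) to 2.14 (Scarna2), with a median of 0.18 against 0.03 for all genes. Scarna2 was 0.12, 0.0779 and 0.0551 CPM in untreated sgRnf19a libraries against 0.0277, 0.0259 and 0 in untreated control libraries, which do not overlap (SE of the log2 fold change 0.88, edgeR adjusted p = 0.227). The libraries of the groups did not overlap for 5 members (4 higher, 1 lower; 38.2% of all genes). Relative to their hosts, snoRNA counts were higher on average in 21 of 24 pairs, with a median ratio of 1.23. The ratios of the libraries lay wholly higher for 5 pairs and wholly lower for 1. By log2 fold change the snoRNA gene was above its host in 20 of 24 pairs. This became 16 of 23 without control library 1, 21 of 22 without library 2 and 15 of 23 without library 3.

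In IR-treated cells 0 of 29 passed in edgeR, where 33.8% of all genes did, with 1 at an unadjusted p under 0.05. DESeq2, which called 6867 of 20207 genes, called 1 member. The call was Snord73a, at a log2 fold change of 2.36 (SE 0.85, edgeR adjusted p = 0.0501); its CPM was 0.0928, 0.173 and 0.373 in IR-treated sgRnf19a libraries against 0.0355, 0.0287 and 0.0537 in IR-treated control libraries. The members ran from -1.29 (Snord58b) to that value, with a median of -0.14 against 0.07 for all genes, and 3 did not overlap (2 higher, 1 lower; 42.5% of all genes). On log2(FPKM + 1) the count was 6 (4 higher, 2 lower; 39.1% of all genes).

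For the difference between the IR response of sgRnf19a cells and that of control cells, 0 of 29 members passed in edgeR, where 0.682% of all genes did, with 0 at an unadjusted p under 0.05 and 0 called by DESeq2, which gave an adjusted p for few of them. The differences ran from -1.66 (Snord58b) to 2.39 (Snord73a, SE 1.10, edgeR adjusted p = 0.239). The SE ran from 0.46 to 1.93 with a median of 1.02, so changes that differ severalfold between the cell types would not have been detectable for most members.

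Proteins of the snoRNA particles moved with IR in both directions. Of the 4 H/ACA core proteins, Nhp2, Nop10 and Gar1 rose in both cell types. Dkc1, which encodes dyskerin, fell by 1.52 on the log2 scale in control cells (edgeR adjusted p = 0.00166) and had a log2 fold change of -0.24 in sgRnf19a cells (edgeR adjusted p = 0.594). Of the 4 C/D core proteins, Snu13, Fbl (fibrillarin) and Nop56 rose in both, by 1.53, 0.81 and 0.38 in sgRnf19a cells and by 1.84, 0.84 and 0.57 in control cells on the log2 scale. Nop58 fell by 1.78 in control cells (edgeR adjusted p = 0.00108) and had a log2 fold change of 0.10 in sgRnf19a cells (edgeR adjusted p = 0.841). The calls of Gar1, Fbl and Nop56 were lost on log2(FPKM + 1), and Nop58 turned to higher in control cells after a length and GC correction fitted on genes over 300 nt. The differences between the responses passed for neither Dkc1 (1.29, edgeR adjusted p = 0.135) nor Nop58 (1.89, edgeR adjusted p = 0.0877).

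Of 11 assembly factors, 2 rose and 2 fell with IR in sgRnf19a cells and 3 rose and 4 fell in control cells. Of 9 genes of snoRNA ends and turnover, 3 rose and 1 fell in sgRnf19a cells and 2 rose and 3 fell in control cells. Among those that fell in control cells was Tgs1, the cap hypermethylase of those snoRNAs that carry a cap, at -3.15 (SE 0.56, edgeR adjusted p = 0.000637). In IR-treated cells 7 of these 9 were higher and 1 lower in sgRnf19a than in control cells. Of all 18183 genes, 33.8% passed there, 3812 higher and 2328 lower. Tgs1 led the 9 at 2.57 (SE 0.55, edgeR adjusted p = 0.00484), with 12.3 to 71.7 CPM against 4.19 to 6.77 CPM. Without IR-treated sgRnf19a library 4, which held 71.7 CPM, the value for Tgs1 was 1.39 (SE 0.24, edgeR adjusted p = 0.00138). That library was also the highest of its group for Dis3, Parn, Exosc10, Ncbp1 and Phax, and the lowest for Exosc3 and Dbr1. Of 5 Cajal body and telomerase genes, 0 rose and 1 (Tert) fell in sgRnf19a cells and 2 rose and 1 fell in control cells. Of 18 tested snoRNA host lncRNA IDs, 7 rose and 2 fell in sgRnf19a cells and 9 rose and 1 fell in control cells. Gas5, the host of many C/D genes, had log2 fold changes of -0.39 and -0.42 and passed in neither. Among U3 and Rmrp gene IDs, which are not members by name, 2 were tested. With IR 1 rose in sgRnf19a cells and 2 in control cells, at median log2 fold changes of 4.09 and 4.99. All of these IDs had few counts without IR. Of all genes tested, 35.6% passed with IR in sgRnf19a cells and 47.9% in control cells.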

How the data were processed

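RNA was extracted with a Qiagen RNeasy Mini column kit, depleted of ribosomal RNA and sequenced as pairs of 37 bp after 12 PCR cycles from an NEB directional kit, per the labels' protocols. Such columns are made for RNAs longer than most members, and the part of that in the levels was not tested. Bowtie2, HTSeq, DESeq2, mm10 and GRCm39 are named in the submitters' processing notes; the notes give no versions or roles and do not say if strand was used for counting, so a member with a gene on the other strand is uncertain. The authors deposited whole-number counts per Ensembl gene, not normalized, and FPKM values, per the file headers. Genes over 2 kb held 5958 values of 4 but 989 of 3 and 1000 of 5, so the deposited values were treated as estimated counts; only 100 of the 348 member values were multiples of 4, and no read-pair value was carried over to the members. Another 12 per-sample columns, copies of the counts, were left out. All 29 coordinates equal those of GENCODE M21 (mm10).

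Untreated columns match the labels by genotype and number. Columns carrying a D were placed in the IR groups because no other group remains; their numbers (1, 3 and 4; 1, 4 and 5) are not those of the labels. No library was a copy of another (chi-square over degrees of freedom at least 6.68).

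Genes kept by filterByExpr (minimum count 10, minimum total 15), 18183 in all, were fitted over 12 libraries with TMM and edgeR 4.0.16 (glmQLFit, robust; glmQLFTest, 2-sided; R 4.3.3), with Benjamini-Hochberg adjustment per comparison, for 5 comparisons. Alternatives used DESeq2 1.42.0, limma 3.58.1 on log2(FPKM + 1) or log2(FPKM + 0.1) for genes averaging 0.5 FPKM or more, other scalings, no filter, counts divided by 4, a spline correction for length and GC content, single libraries left out and a replicate block. A correction fitted on genes over 300 nt, a count over members sharing no 37-mer with a gene other than their host, and host pairs without 3 members near the threshold were added after the data were seen. A host is the best counted gene over 1 kb that contains a member on its strand.

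The members and gene lists were chosen with earlier results of these data known. Genes named are the 10 members with the highest summed count, called members of at least 2 CPM without overlap (none reached 2 CPM), those at the threshold and a fixed set; Snord73a, Snora57 and others named for their values were chosen after these were seen.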

Additional observations from a re-analysis of the deposited data

Results flagged for a closer look

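Every IR-treated library was below the untreated mean in sgRnf19a cells and above it in control cells for 2 genes. For Snord58b, which shares reads with other genes and is uncertain, the difference between the responses was -1.66 on the log2 scale (SE 1.04, edgeR adjusted p = 0.385). For Snord65 it was -0.82 (SE 0.88, edgeR adjusted p = 0.642). Neither passed.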

How the results depend on the processing

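For IR in control cells the count of called members was 5, and it was 9 with DESeq2 (4 higher, 5 lower), 3 with no filter, 15 on log2(FPKM + 1), 13 on log2(FPKM + 0.1), 2 with counts divided by 4 (5 members tested), 3 with the length and GC correction, 10 with that correction from genes over 300 nt (1 higher, 9 lower) and 3 among members sharing no 37-mer with a gene other than their host. For IR in sgRnf19a cells it was 2, and it was 1 with no filter, 17 on log2(FPKM + 1), 14 on log2(FPKM + 0.1), 13 with the correction from genes over 300 nt (0 higher, 13 lower) and 1 with the replicate block (Scarna2, edgeR adjusted p = 0.0273; Snord42b, 0.0892). For the guide in untreated cells it was 0, and 1 on log2(FPKM + 1); for the guide in IR-treated cells it was 0, and 1 with DESeq2, 6 on log2(FPKM + 1) and 3 on log2(FPKM + 0.1). For the difference between the responses it was 0 under every alternative run. Among all genes, the calls for IR in control cells were 9266 of 20207 with DESeq2 and 7935 of 29550 with no filter. They were 8153 of 12753 on log2(FPKM + 1) and 8013 of 12753 on log2(FPKM + 0.1). With counts divided by 4 they were 8812 of 14185. They were 7571 of 18183 with the length and GC correction and 7968 of 18183 with that from genes over 300 nt. For IR in sgRnf19a cells they were 5790 of 29550 with no filter, and 8114 and 7999 of 12753 on the FPKM scales. They were 6759 of 18183 with the correction from genes over 300 nt and 7388 of 18183 with the block. For the guide in untreated cells they were 1078 of 12753 on log2(FPKM + 1). For the guide in IR-treated cells they were 6867 of 20207 with DESeq2, and 4991 and 5238 of 12753 on the FPKM scales. The cause of this dependence on the setting was not tested. The correction from genes over 300 nt extends a trend to lengths it was not fitted on; in the planned correction 26 of the 135 tested genes under 150 nt are members. With the correction from genes over 300 nt, Snora21 in control cells turned to -0.12 and Snord42b in sgRnf19a cells to -0.61, neither called, and the calls of Scarna2 in sgRnf19a cells (2.07) and Snord42b in control cells (0.56) were lost. The call of Snora57 in control cells was lost as well.

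Leaving out single libraries gave 2 to 5 calls for IR in control cells, 1 to 2 for IR in sgRnf19a cells, 0 to 0 for the guide in untreated cells, 0 to 1 for the guide in IR-treated cells and 0 to 0 for the difference. Without untreated control library 2 the median of members for IR in control cells was 0.58, against -0.02 with it. Same-numbered libraries correlated at -0.11, 0.336 and 0.321 between the untreated groups, at 0.232 and 0.567 between the IR-treated groups and at 0.053 and 0.106 between the sgRnf19a groups. With fewer than 3 pairs or a correlation below 0.1 the numbers were not taken to pair libraries; no paired fit was possible for IR in control cells or the difference, where fewer than 2 numbers are shared or the result spans all groups. With IR the snoRNA genes were below their hosts in at least 19 of 24 pairs on each scale that kept all 24 pairs; with counts divided by 4, 4 pairs were tested, and 4 in sgRnf19a cells and 3 in control cells were below.

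Low counts limit all of these results: 104 of 348 member values were under 10 counts and 5 were 0.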

Other observations

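Many snoRNA genes under the threshold had the same small count everywhere. Of the 129 named genes with a count, 37 had a count of exactly 1 in all 12 libraries, as did 196 of 29550 gene IDs with a count, and 192 of those 196 were under 200 nt long. Among them were Snord14d, Snora74a, Snora81 and Snord15b, while none of the 29 described genes was. The U8 and U13 genes Snord118 and Snord13 had summed counts of 18 and 4.

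Of the other scaRNA genes, Scarna10 had a summed count of 63, Scarna13 of 59, Scarna6 of 41, Scarna9 of 22 and Scarna17 of 2. None was tested.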
